A study of Mus musculus with 45 samples.

Results

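The 35 genes described here drive the cell through DNA replication and division. They were chosen by name from their known roles, 11 for S phase and 24 for mitosis, and all 35 were found, each on 1 line, among the 55367 gene symbols of the count table. Female BALB/c mice received porous polycaprolactone scaffolds under the skin at 7 to 8 weeks of age, and 2 weeks later 2000000 67NR, 4T07 or 4T1 cells were placed in the mammary fat pad. The 3 lines are mammary carcinoma lines of the same mouse strain and are known to differ in how far they spread, 67NR staying at the primary site, 4T07 invading without lasting metastases and 4T1 forming metastases. Control mice carried scaffolds and no tumor. On day 14, RNA was sequenced from scaffolds, lungs and spleens of the control, 67NR, 4T07 and 4T1 mice and from the primary tumors of the 3 lines, 3 libraries a group and 45 in all. Each group stands for 1 cell line in 1 mouse strain on 1 day, and the labels tie no organ to a mouse. P-values therefore measure the spread between samples within groups, estimated over all groups of a fit together.

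S phase genes build and feed the replication fork. The MCM proteins form the helicase ring that unwinds DNA, Pcna is the sliding clamp of the polymerases, Pclaf binds that clamp, and Rrm2, Tyms and Tk1 supply deoxynucleotides. Mitosis genes come later in the cycle: cyclins A2, B1 and B2 with their kinase Cdk1 start division, the Aurora, Polo-like and Bub kinases and the survivin subunit Birc5 control the spindle and its checkpoint, Cenpa, Cenpe and Cenpf act at the centromere, Kif11, Kif20a and Kif23 are spindle motors, and Ube2c and Cdc20 work with the ligase that ends mitosis. E2F factors are known to act on many S phase promoters, and the MuvB complex acts through the cell cycle genes homology region (CHR) on many mitosis promoters, often beside CCAAT boxes bound by NF-Y. The red pulp of the mouse spleen makes blood cells throughout life and is known to widen when granulocyte demand is high, whereas most cells of the adult lung rest.

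Promoters of 30 of the 35 genes were found in the RefSeq table for GRCm38.p6, 10 of the S phase and 20 of the mitosis class, each 300 bases from 250 before the start site. Those of Mcm4, Ccna2, Aurkb, Kif20a and Tpx2 were not in it. E2F was searched as the letters TTCCCGC or as one of the variants: the form TTGGCGC, the mixed form TTCGCGC and the mixed form TTGCCGC. The CHR was searched as TTTGAA or, in its other known form, TTCGAA, and NF-Y was searched as CCAAT. Both strands were read. An E2F match stood in 6 of the 10 S phase genes and 4 of the 20 mitosis genes, against 10.9% of all 27025 genes with a promoter. A CHR match stood in 2 of the 10 S phase genes and 16 of the 20 mitosis genes, against 21.7% of all genes. CCAAT was found in 8 of 10 and 18 of 20, against 41.1%. The E2F and CCAAT letters overlapped in 2 promoters of the 35 genes. The promoters of 3 S phase genes (Mcm5, Mcm6 and Rrm2) and 3 mitosis genes (Cdk1, Plk1 and Ube2c) are shown in lower case, with every match in capitals. They are examples chosen after values were seen and do not stand for their classes. All 3 S phase genes shown hold E2F letters, which 6 of the 10 do, and Cdk1 is among the 4 mitosis genes with them.
Mcm5, chr8:75109259-75109558 (plus strand): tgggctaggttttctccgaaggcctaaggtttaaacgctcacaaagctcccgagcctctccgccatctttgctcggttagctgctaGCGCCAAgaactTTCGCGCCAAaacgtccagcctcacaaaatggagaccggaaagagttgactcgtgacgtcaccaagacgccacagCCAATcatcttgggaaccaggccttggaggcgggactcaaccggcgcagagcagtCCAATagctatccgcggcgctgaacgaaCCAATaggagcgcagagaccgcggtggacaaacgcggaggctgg
Mcm6, chr1:128359656-128359955 (minus strand): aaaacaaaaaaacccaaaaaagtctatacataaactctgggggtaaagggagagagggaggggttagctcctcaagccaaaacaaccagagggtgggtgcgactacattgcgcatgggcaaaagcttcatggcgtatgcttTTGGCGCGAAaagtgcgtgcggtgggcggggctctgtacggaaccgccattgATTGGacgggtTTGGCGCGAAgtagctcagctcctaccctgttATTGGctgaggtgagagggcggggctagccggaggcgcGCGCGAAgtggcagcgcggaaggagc
Rrm2, chr12:24708004-24708303 (plus strand): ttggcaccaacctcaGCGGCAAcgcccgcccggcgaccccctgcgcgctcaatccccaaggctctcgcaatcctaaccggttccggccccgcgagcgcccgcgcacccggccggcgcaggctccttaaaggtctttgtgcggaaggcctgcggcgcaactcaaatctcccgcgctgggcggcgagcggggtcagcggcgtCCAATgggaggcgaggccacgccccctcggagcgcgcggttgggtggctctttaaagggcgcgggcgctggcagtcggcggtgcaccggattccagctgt
Cdk1, chr10:69352863-69353162 (minus strand): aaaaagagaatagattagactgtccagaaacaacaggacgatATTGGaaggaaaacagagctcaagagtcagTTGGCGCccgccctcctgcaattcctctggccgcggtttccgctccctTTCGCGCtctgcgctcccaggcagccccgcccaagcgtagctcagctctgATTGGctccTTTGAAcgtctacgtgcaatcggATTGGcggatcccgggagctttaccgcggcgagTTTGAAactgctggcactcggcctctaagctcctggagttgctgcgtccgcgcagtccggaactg
Plk1, chr7:122159185-122159484 (plus strand): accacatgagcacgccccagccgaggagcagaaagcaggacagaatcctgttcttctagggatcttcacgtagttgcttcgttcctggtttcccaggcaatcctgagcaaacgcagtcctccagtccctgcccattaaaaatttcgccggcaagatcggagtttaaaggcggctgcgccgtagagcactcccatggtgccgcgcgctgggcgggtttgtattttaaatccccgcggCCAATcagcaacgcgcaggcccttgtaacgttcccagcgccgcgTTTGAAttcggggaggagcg
Ube2c, chr2:164769679-164769978 (plus strand): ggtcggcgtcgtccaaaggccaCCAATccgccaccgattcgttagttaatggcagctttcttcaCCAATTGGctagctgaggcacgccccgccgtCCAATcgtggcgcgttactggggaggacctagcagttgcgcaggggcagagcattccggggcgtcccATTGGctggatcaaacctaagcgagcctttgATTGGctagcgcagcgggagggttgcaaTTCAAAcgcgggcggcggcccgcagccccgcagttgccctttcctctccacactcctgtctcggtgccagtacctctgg

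Mcm5 and Mcm6, both subunits of the helicase, held 3 and 5 E2F matches and no CHR. Matches on opposite strands were counted apart even where they share letters, as in TTCGCGCCAA of Mcm5 and TTGGCGCGAA of Mcm6, so separate stretches are fewer. Rrm2, the regulated subunit of ribonucleotide reductase, held 1 E2F match, 235 bases before the start site. Cdk1 held both kinds, E2F letters 178 and 130 bases and CHR letters 71 and 15 bases before the start site. Plk1 and Ube2c each held 1 CHR and no E2F match, 30 bases after and 29 bases before the start site. A match is a string of letters and not a measured binding site.

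Several libraries carried transcripts of another tissue, and the results are read beside that. The unit of all levels is CPM, the count per 1000000 counts of the library. The 4T07 lungs held 5697 to 14299 CPM of 6 lung epithelium markers in sum, against 34914 to 37035 in control lungs, so the lung label was borne out at a lower level. Their sums for 8 early granulocyte markers were 4973, 5855 and 4251 CPM, against 10.6 to 16.5 in control lungs, and for 12 erythroid precursor markers 3064, 3232 and 2143 against 146 to 170.2. Counts of Tlx1, a transcription factor of spleen stroma, were 69, 67 and 51 in the 4T07 lungs, 3, 3 and 2 in control lungs and 81, 69 and 57 in 4T07 spleens. A list of 5 spleen stroma and red pulp genes (Tlx1, Nkx2-5, Nkx2-3, Madcam1 and Spic), chosen after the values were seen, summed to 47.1 to 73.7 CPM in 4T07 lungs, 2.10 to 5.58 in control lungs and 79.7 to 103 in 4T07 spleens. All 3 lungs of 4T07 mice stood apart in this way. The first 4T07 scaffold (22.8 CPM for the list of 5, against 6.88 and 3.11 in the others) and the first 4T07 tumor (15.9 against 6.35 and 5.93) did so too. In another list, 22 genes that marked 67NR tumors, being at or under 3 counts in every control library, summed to 231, 168 and 83.9 CPM in the 4T07 spleens and 0.431 to 1.17 in control spleens. That rule holds the control values low. The same list stood at 1807 to 1933 CPM in 67NR and 50.8 to 93.3 in 4T07 tumors, 86.8, 44.8 and 23.6 in the 4T07 lungs against 0.721 to 1.05 in control lungs, and 92.4, 12.2 and 4.66 in the 4T07 scaffolds. Of the 3 4T07 spleens, 2 held more of it than any tumor of the line they are labelled with. The plot of the 35 genes beside these markers shows all libraries.

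**Figure D1:**
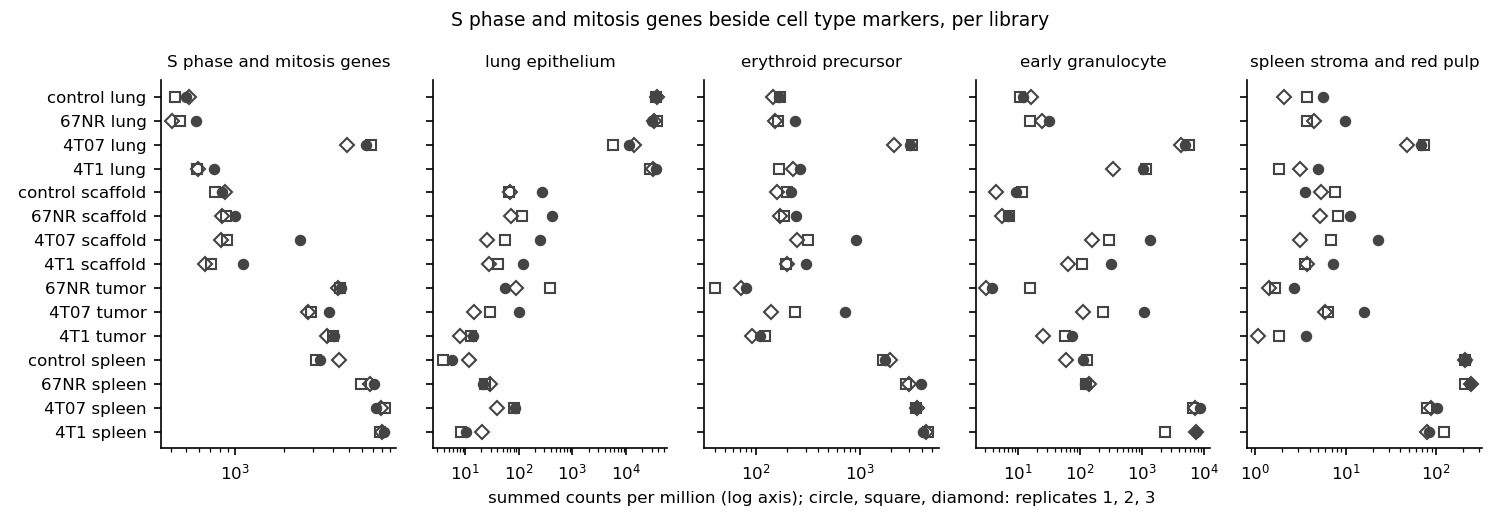
Summed CPM (log axis) of the 35 S phase and mitosis genes and of 4 marker lists in each library; rows are groups, and the circle, square and diamond are replicates 1, 2 and 3. The 3 4T07 lungs lie near the 4T07 spleens for the genes and for the erythroid, granulocyte and spleen lists. These lungs lie far above the control spleens for the granulocyte list and below them for the spleen list. The first 4T07 scaffold and first 4T07 tumor lie above the other libraries of their groups.

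In healthy mice, the spleen held more of nearly all of these transcripts than the lung or the scaffold. A gene was called where the edgeR quasi-likelihood test gave a Benjamini-Hochberg adjusted p under 0.05 (0.10 for lungs, spleens and scaffolds of tumor-bearing mice against other groups) with more than a 2-fold change. Between control spleens and control lungs, 33 of the 35 genes were called higher in spleen, where 17.7% of all 21602 genes tested were. Mcm4 at 0.75 and Kif20a at 1.28 on the log2 scale were not called. The mitosis genes differed by a median log2 fold change of 3.24 and the S phase genes by 2.07, beside 0.05 for all genes. In bulk tissue, fewer dividing cells and less of these RNAs per cell cannot be told apart.

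Rrm2 stood at 50.7, 37.1 and 54.8 CPM in the 3 control spleens, 3.31, 3.07 and 2.10 in control lungs and 4.40, 5.23 and 8.66 in control scaffolds. The spleens lay above both other organs without overlap (log2 fold change 4.10 ± 0.28, adjusted p = 1.06e-08 against lung). Plk1, the Polo-like kinase of mitotic entry, stood at 97.7, 111 and 135 CPM in spleen and 5.23, 4.51 and 6.96 in lung (log2 fold change 4.38 ± 0.20, adjusted p = 3.17e-10). Mki67, the Ki-67 proliferation antigen, stood at 337, 349 and 423 CPM in spleen, 25.6, 18.9 and 26.2 in lung and 45.7, 40.1 and 46.0 in scaffold. Its fold change was 4.00 ± 0.18 (adjusted p = 3.17e-10) against lung and 2.89 ± 0.17 (adjusted p = 4.27e-09) against scaffold.

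Against control scaffolds, 30 genes were called higher in control spleens (15.9% of all genes), with Nusap1, a spindle-binding protein, at 2.91 ± 0.21 (adjusted p = 2.55e-08) on the log2 scale. The 5 that were not called were Pcna, Mcm4, Bub1, Kif20a and Tpx2. The scaffold in turn held more than the lung: 18 genes were called lower in control lungs than in control scaffolds (13.3% of all genes), 2 of them S phase genes, Rrm2 and Tk1, and 16 mitosis genes. Tpx2, which activates Aurora A at the spindle, differed most, at 6.62, 5.77 and 8.42 CPM in lungs and 33.6, 29.5 and 30.7 in scaffolds (log2 fold change -2.38 ± 0.22, adjusted p = 3.93e-07). The class medians were -0.51 for S phase and -1.11 for mitosis genes. The order of the organs was spleen, scaffold, lung for most mitosis genes, while 9 of the 11 S phase genes were not called between scaffold and lung.

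**Figure D2:**
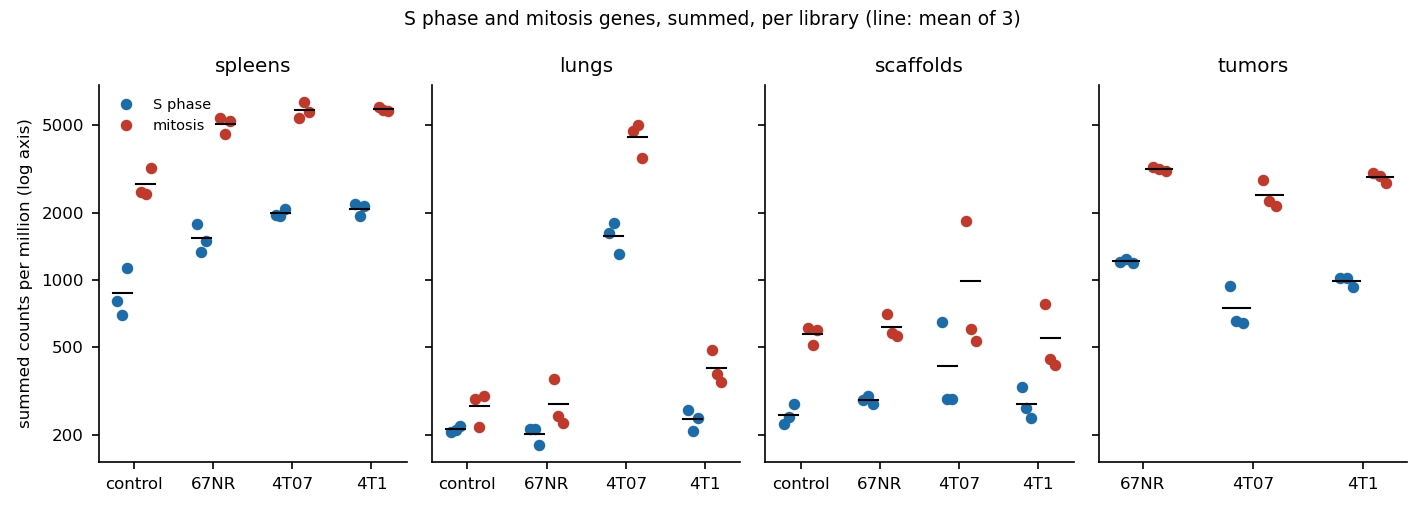
Summed CPM (log axis) of the 11 S phase genes (blue) and 24 mitosis genes (red) in each library; points are libraries and the line is the mean of 3. Control spleens lie above control lungs and scaffolds in both classes, the spleens of all 3 tumor lines lie above the control spleens, and the 4T07 lungs lie above the other lungs.

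In spleens, all 35 genes had positive log2 fold changes with each of the 3 tumors. The class medians were 0.73 for S phase and 0.79 for mitosis genes with 67NR, lower values than with 4T07 and 4T1 tumors; the difference between lines was tested only for 4T1 against 4T07. With 67NR tumors, 7 of the 35 genes were called higher and none lower (1.29% of all 21128 genes were called higher). They were Mcm2, Rrm2, Ccna2, Aurkb, Birc5, Kif23 and Ube2c. With no limit on the fold the count was 25. The share of all genes at that setting is not given here, and the 1.29% holds for the 2-fold limit only. In 9 of 11 S phase genes and 20 of 24 mitosis genes, all 3 67NR spleens lay above all 3 control spleens, which held for 15.8% of all genes. Ube2c, the ubiquitin-conjugating enzyme of the anaphase-promoting complex, stood at 246, 132 and 156 CPM against 62.1, 56.8 and 62.3 (log2 fold change 1.47 ± 0.20, adjusted p = 0.00782). Kif23, the motor of the central spindle, stood at 117, 73.3 and 125 against 47.8, 40.6 and 50.0 (log2 fold change 1.09 ± 0.21, adjusted p = 0.0147). Rrm2 differed by 1.21 ± 0.25 (adjusted p = 0.0194), Mcm2 by 1.06 ± 0.23 (adjusted p = 0.0233) and Aurkb by 1.07 ± 0.29 (adjusted p = 0.0561). Cdk1 showed no such shift, with 75.4, 58.8 and 76.2 CPM against 93.0, 57.2 and 44.0 and a log2 fold change of 0.01. The count of 7 depended on single libraries: it was 1 without the second control spleen, 2 without the first 67NR spleen, 4 without the first control spleen and 11 without the second 67NR spleen.

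With 4T07 tumors, 27 of the 35 genes were called higher in spleens (8.26% of all genes), and with 4T1 tumors 28 were (9.84%). None was called lower. Both comparisons share the control spleens. The 4T07 spleens carried the list of 22 genes that marked 67NR tumors, at 83.9 to 231 CPM as given above. They also held 85.2, 81.1 and 39.8 CPM of 6 lung epithelium markers in sum. That sum was 3.92 to 11.6 CPM in control, 21.6 to 29.4 in 67NR and 8.33 to 21.0 in 4T1 spleens. The part of these transcripts in the result was not tested. Median log2 fold changes were 1.53 and 1.48 for S phase and mitosis genes with 4T07, and 1.61 and 1.64 with 4T1, beside -0.09 and -0.10 for all genes. Single S phase genes ran from 0.84 to 1.96 and single mitosis genes from 0.69 to 1.99 in the 4T07 spleens. In the 4T1 spleens they ran from 0.77 to 2.59 and from 0.83 to 2.51.

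Rrm2 led the S phase class in both, at 215, 149 and 133 CPM in 4T07 and 257, 189.8 and 269 in 4T1 spleens. Its fold changes were 1.96 ± 0.26 (adjusted p = 4.01e-05) and 2.59 ± 0.26 (adjusted p = 2.75e-06) on the log2 scale. In the helicase ring, Mcm7 rose in 4T07 spleens to 203, 237 and 302 CPM from 67.2, 53.8 and 101 (log2 fold change 1.92 ± 0.24, adjusted p = 2.62e-05). Mcm4 rose in 4T1 spleens to 152, 119 and 199.9 CPM from 53.2, 38.3 and 31.5 (log2 fold change 2.19 ± 0.33, adjusted p = 0.00012). Mcm3, a partner in the same ring, was not called in either, at 0.84 and 0.77, and the third control spleen stood at 201 CPM of it beside 108 and 99.0 in the others. Tk1, the thymidine kinase of the salvage route, stood at 283, 334 and 290.2 CPM in 4T1 spleens against 76.3, 75.9 and 112 (log2 fold change 2.04 ± 0.20, adjusted p = 1.93e-06). Pclaf rose in 4T07 spleens by 1.74 ± 0.19 (adjusted p = 6.42e-06).

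Among mitosis genes, Aurkb, the kinase of the chromosomal passenger complex, stood at 64.7, 37.6 and 34.4 CPM in 4T07 and 62.8, 46.0 and 64.0 in 4T1 spleens against 14.2, 14.3 and 9.92 in controls. It differed by 1.99 ± 0.29 (adjusted p = 0.000106) and 2.43 ± 0.29 (adjusted p = 1.38e-05). Cdc20, the activator of the anaphase-promoting complex, differed by 1.91 ± 0.27 (adjusted p = 8.26e-05) and 2.20 ± 0.27 (adjusted p = 1.81e-05), and Ube2c in 4T07 spleens by 1.85 ± 0.20 (adjusted p = 7.87e-06). Cdk1 stood at 336, 252 and 342 CPM in 4T1 spleens (log2 fold change 2.51 ± 0.29, adjusted p = 9.56e-06) and at 209, 164 and 94.8 in 4T07 spleens. It was the 1 gene called between 4T1 and 4T07 spleens, at 1.09 ± 0.28 (adjusted p = 0.0528), where 0.838% of all genes were called higher. Without the second or the third 4T07 spleen, or the first or the third 4T1 spleen, it was not called. The widely used marker Mki67 moved less than the class, with 474, 657 and 603 CPM in 4T07, 538, 566 and 546 in 4T1 and 337, 349 and 423 in control spleens, at 0.83 ± 0.18 (adjusted p = 0.00295) and 0.83 ± 0.18 (adjusted p = 0.00255), under the 2-fold limit in both.

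Cell type markers also differed between these spleens, and not all of them followed the genes. Summed B cell markers (6 genes) were 1325 to 1768 CPM in control, 1603 to 1829 in 67NR, 472 to 561 in 4T07 and 361 to 609 in 4T1 spleens. Erythroid precursor markers were 1689 to 1959, 2785 to 3942, 3439.7 to 3581 and 4109 to 4583 CPM in the same order. Early granulocyte markers (Elane, Mpo, Ltf, Camp and 4 others) were 58.9 to 130.4, 123 to 139, 6680.3 to 8599.5 and 2352 to 7349.9 CPM. The second 4T1 spleen had the lowest granulocyte sum of its group, 2352 against 7348 and 7349.9 CPM, and its 35 genes stood close to those of the other 2, at 1939 CPM for the S phase genes in sum against 2199 and 2160.2. In the 67NR spleens the 35 genes and the erythroid markers stood higher while the granulocyte sum lay close to the control range. The part of these cells in the result was not tested.

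**Figure D3:**
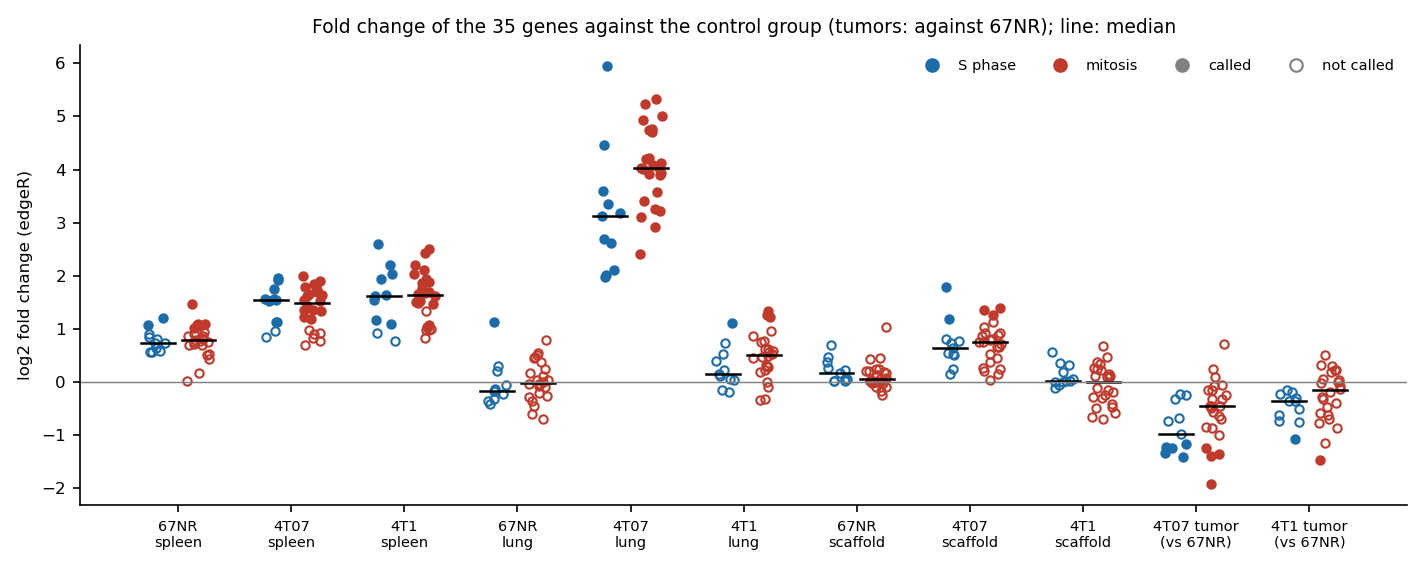
Log2 fold change from edgeR of each of the 35 genes against the control group of the same organ, or against 67NR for tumors; blue, S phase; red, mitosis; filled, called; open, not called; the line is the class median. All points lie above 0 in the 4T07 and 4T1 spleens, all lie far above 0 in the 4T07 lungs, and the S phase points of the 4T07 tumors lie below 0.

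In lungs, few of the genes were called with 67NR or 4T1 tumors, and all were called with 4T07 tumors. The 4T07 lungs carried spleen stroma transcripts as given above. The 67NR and 4T1 lungs were not tested against each other. With 67NR tumors, Rrm2 was the 1 gene called (2.52% of all 21937 genes were called higher), at 6.51, 6.66 and 6.80 CPM against 3.31, 3.07 and 2.10 (log2 fold change 1.13 ± 0.26, adjusted p = 0.00996). It was not called without the third control lung. The class medians lay at -0.17 for S phase and -0.02 for mitosis genes. Under library totals the mitosis median turned to 0.09, so no direction is given for that class.

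With 4T1 tumors, 4 genes were called higher and none lower (3.56% of all genes): Rrm2, Ccna2, Plk1 and Birc5. Ccna2, the cyclin of S phase and G2, stood at 18.4, 11.7 and 12.3 CPM against 5.93, 4.15 and 6.80 (log2 fold change 1.33 ± 0.24, adjusted p = 0.00124). Plk1 stood at 15.1, 13.8 and 10.8 against 5.23, 4.51 and 6.96 (log2 fold change 1.26 ± 0.26, adjusted p = 0.00355), and Birc5 at 76.5, 59.2 and 48.0 against 29.3, 22.7 and 26.9 (log2 fold change 1.23 ± 0.24, adjusted p = 0.00267). Rrm2 stood at 7.08, 4.52 and 6.60 CPM (log2 fold change 1.11 ± 0.26, adjusted p = 0.00946). In all 4, the lowest 4T1 lung lay above the highest control lung. That held for 4 of 11 S phase genes and 11 of 24 mitosis genes, and for 13.3% of all genes. The median log2 fold change was 0.51 for mitosis and 0.14 for S phase genes, beside 0.00 for all genes. The same lungs had 1037, 1166 and 340.4 CPM of early granulocyte markers against 10.6 to 16.5 in controls, 266, 165 and 226 against 146 to 170.2 CPM of erythroid precursor markers, and 1.84 to 4.99 against 2.10 to 5.58 CPM of the 5 spleen genes. Fitted without the 4T07 lungs, 1 and 4 genes were again called for 67NR and 4T1.

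The 4T07 lungs, which carried spleen stroma transcripts as given above, held more of all 35 genes than control lungs. All 35 were called higher (15.3% of all genes), with a median log2 fold change of 3.13 for S phase and 4.02 for mitosis genes. Rrm2 stood at 160.0, 195 and 146 CPM (log2 fold change 5.94 ± 0.21, adjusted p = 1.97e-13) beside 215, 149 and 133 in the 4T07 spleens and 3.31, 3.07 and 2.10 in control lungs. Ube2c stood at 214, 230.0 and 143 CPM in the 4T07 lungs and 211, 181 and 190.2 in the 4T07 spleens, against 5.75, 4.15 and 5.18 in control lungs (log2 fold change 5.34 ± 0.27, adjusted p = 7.36e-12). Plk1 stood at 239.9, 236 and 131 CPM (log2 fold change 5.24 ± 0.24, adjusted p = 2.24e-12) and Ccna2 at 184, 195 and 144 (log2 fold change 5.01 ± 0.23, adjusted p = 1.96e-12). Tk1 and Mcm5 differed by 4.46 ± 0.25 (adjusted p = 2.26e-11) and 3.60 ± 0.19 (adjusted p = 1.35e-11). The third 4T07 lung had the lowest sum of both classes, 1317 CPM of S phase genes against 1635 and 1802, and 3564 CPM of mitosis genes against 4738 and 5047. It also had the lowest sum of the erythroid and early granulocyte markers and of the 5 spleen genes.

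Against the 4T07 lungs, the 4T1 lungs were called lower in all 35 genes (11.9% of all genes), by a median of -2.74 for S phase and -3.58 for mitosis genes. Rrm2, Tk1 and Mcm2 led the S phase genes at -4.83 ± 0.19, -3.74 ± 0.23 and -3.20 ± 0.17, and Ube2c, Aurkb and Ccnb1 the mitosis genes at -4.78 ± 0.25, -4.36 ± 0.26 and -4.34 ± 0.23. The largest adjusted p of these 6 was 1.95e-10. This contrast rests on the 4T07 lungs, and tumor line and spleen signal cannot be told apart in it, since all 3 of those lungs carry that signal. Tumor transcripts were read from a rule list for each tumor line. One held 16 genes with a mean of at least 10 CPM in 4T07 tumors and at most 3 counts in every control library. These summed to 2.89 to 6.35 CPM in 4T07 lungs, 1.35 to 1.61 in 4T1 lungs and 345 to 441 in 4T07 tumors. They also summed to 347 to 364 CPM in 4T1 tumors, so the list did not single out 4T07. Their 0.349 to 0.647 CPM in control lungs was held low by the rule. The 22 genes that marked 67NR tumors summed to 23.6 to 86.8 in 4T07 lungs and 50.8 to 93.3 in 4T07 tumors. The part of tumor cells in the lung result was not tested.

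In scaffolds, few or none of the 35 genes were called, and the first 4T07 and the first 4T1 scaffold stood apart from the others of their groups. With 67NR tumors none was called, and 0% of all 22156 genes were (edgeR). No member had an unadjusted p under 0.05 in edgeR, and DESeq2 called 0 members and 1 gene in all. With 4T1 tumors none was called, beside 0.0226% of all genes, again with 0 members at an unadjusted p under 0.05 in edgeR. DESeq2 called 0 members and 64 genes in all. With 4T07 tumors, 5 genes were called higher (3.85% of all genes): Rrm2, Mcm2, Ube2c, Ccna2 and Nusap1. Rrm2 stood at 45.5, 13.4 and 10.6 CPM against 4.40, 5.23 and 8.66 (log2 fold change 1.78 ± 0.43, adjusted p = 0.0139). Ube2c stood at 54.9, 13.6 and 13.2 against 8.18, 8.55 and 11.5 (log2 fold change 1.39 ± 0.43, adjusted p = 0.0437), and Ccna2 at 61.0, 19.5 and 16.8 against 11.5, 10.1 and 12.9 (log2 fold change 1.35 ± 0.37, adjusted p = 0.0242). The first 4T07 scaffold was far above all others in each, and the other 2 also lay above the highest control.

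Mcm2 stood at 29.4, 18.5 and 12.9 CPM against 5.66, 9.03 and 9.44, without overlap (log2 fold change 1.19 ± 0.31, adjusted p = 0.019). Nusap1 stood at 75.5, 23.0 and 16.8 against 11.7, 11.4 and 20.6, with overlap (log2 fold change 1.25 ± 0.47, adjusted p = 0.0952). All 3 4T07 scaffolds lay above all 3 controls in 4 of 11 S phase and 6 of 24 mitosis genes, beside 21.8% of all genes. These 3 scaffolds held 647, 289 and 289.8 CPM of S phase genes and 1851, 602 and 529 CPM of mitosis genes in sum. They held 927, 314 and 247 CPM of erythroid precursor markers and 1371, 294 and 157 CPM of early granulocyte markers, so the first stood apart in all 4 sums. The 4T1 scaffolds held 784, 442 and 414 CPM of mitosis genes and 317, 109 and 65.4 CPM of early granulocyte markers, the first again highest. Without the first 4T07 scaffold no gene was called, and the class medians went from 0.64 and 0.74 to 0.03 and 0.08. With the first 4T1 scaffold left out as well, Mki67, Cenpf and Hmmr were called lower in 4T1 than in control scaffolds. The share of all genes in that fit is not given here. Between 4T1 and 4T07 scaffolds none was called (1% of all genes). In edgeR, 13 members had an unadjusted p under 0.05, all lower in 4T1, and the share of all genes at that p is not given here. DESeq2 called 290 genes in all, 2 of them members, Rrm2 and Ube2c.

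In tumors, 9 of the 35 genes were called lower in 4T07 than in 67NR, and most others had lower values that were not called. With TMM factors, all 11 S phase genes had a negative log2 fold change, with a median of -0.98. So did 21 of 24 mitosis genes, with a median of -0.46, beside 0.16 for all 20508 genes. The 9 were 5 of S phase (Mcm3, Mcm4, Mcm5, Mcm7 and Tk1) and 4 of mitosis (Cdk1, Plk1, Prc1 and Birc5), where 11.8% of all genes were called lower. None was called higher. All 3 4T07 tumors lay below all 3 67NR tumors in 6 of 11 S phase and 7 of 24 mitosis genes, and in 16.3% of all genes.

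Of the S phase genes, Mcm7 stood at 120.4, 147 and 128 CPM in 67NR and 63.4, 51.3 and 71.4 in 4T07 tumors (log2 fold change -1.34 ± 0.17, adjusted p = 2.45e-05). Mcm5 stood at 221, 152 and 145 and 113, 74.8 and 72.5 (log2 fold change -1.24 ± 0.20, adjusted p = 0.000168), and Tk1 at 209.9, 152 and 125 and 97.3, 61.9 and 57.6 (log2 fold change -1.41 ± 0.23, adjusted p = 0.000194). The ring subunit Mcm2 was not called, at 34.7, 49.8 and 47.7 and 54.8, 33.7 and 44.9 CPM (log2 fold change -0.24 ± 0.22, adjusted p = 0.405), nor was the clamp Pcna (log2 fold change -0.22 ± 0.19, adjusted p = 0.367). In all, 4 of the 6 ring subunits were called lower. Mcm6 stood at -0.98 under the 2-fold limit, without overlap between the lines. Mcm2 overlapped, and so did Mcm4, although it was called. Mcm4 stood at 63.4, 122 and 127 CPM in 67NR and 70.8, 61.5 and 32.2 in 4T07 tumors.

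Of the mitosis genes, Cdk1 differed most, at 170.1, 345 and 305 CPM in 67NR and 103, 90.2 and 64.6 in 4T07 tumors (log2 fold change -1.93 ± 0.25, adjusted p = 2.28e-05). Plk1 stood at 376, 246 and 221 and 148, 118 and 112 (log2 fold change -1.40 ± 0.19, adjusted p = 3.87e-05). Prc1, which bundles microtubules at the midzone, stood at 109, 75.8 and 70.0 and 40.7, 36.5 and 40.9 (log2 fold change -1.35 ± 0.19, adjusted p = 4.86e-05). Against the majority, Bub1, Bub1b and Ube2c had positive values. Bub1, a kinase of the spindle checkpoint, stood at 12.6, 15.7 and 22.6 CPM in 67NR and 39.5, 37.0 and 22.6 in 4T07 tumors (log2 fold change 0.72 ± 0.25, adjusted p = 0.031), past the adjusted p and under the 2-fold limit. Bub1b was at 0.09 and Ube2c at 0.24, neither past the adjusted p.

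The cell make-up of the tumors differed between the lines as well. Fibroblast markers (6 genes) summed to 896 to 1117 CPM in 67NR, 4756 to 7059 in 4T07 and 5693 to 8829.8 in 4T1 tumors, and 6 and 5 of the 6 were called higher in 4T07 and 4T1 than in 67NR. Early granulocyte markers were 3.11 to 15.9, 112 to 1065 and 25.7 to 74.4 CPM in the same order, with 8 and 3 of 8 called higher. Erythroid precursor markers were 40.0 to 80.1, 140.3 to 716 and 90.9 to 122 CPM, with 11 and 0 of 12 called higher. Tumor epithelium markers (5 genes) were 12.7 to 21.8, 97.3 to 154 and 1025 to 1174 CPM. The part of these cells in the tumor results was not tested.

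The first 4T07 tumor had the highest sum of its group in both classes (939.8, 656 and 640.1 CPM of S phase and 2833, 2269 and 2165 of mitosis genes) and in blood cell markers (716, 239 and 140.3 CPM of erythroid precursor and 1065, 235 and 112 of early granulocyte markers). Without it 14 genes were called lower, with Mcm6, Rrm2, Tyms, Aurkb and Cenpa added to the 9, and the class medians were -1.34 and -0.72. With library totals in place of TMM factors, which moved the median of all genes by 0.25, 5 genes were called, Cdk1, Mcm7, Plk1, Prc1 and Tk1.

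**Figure D4:**
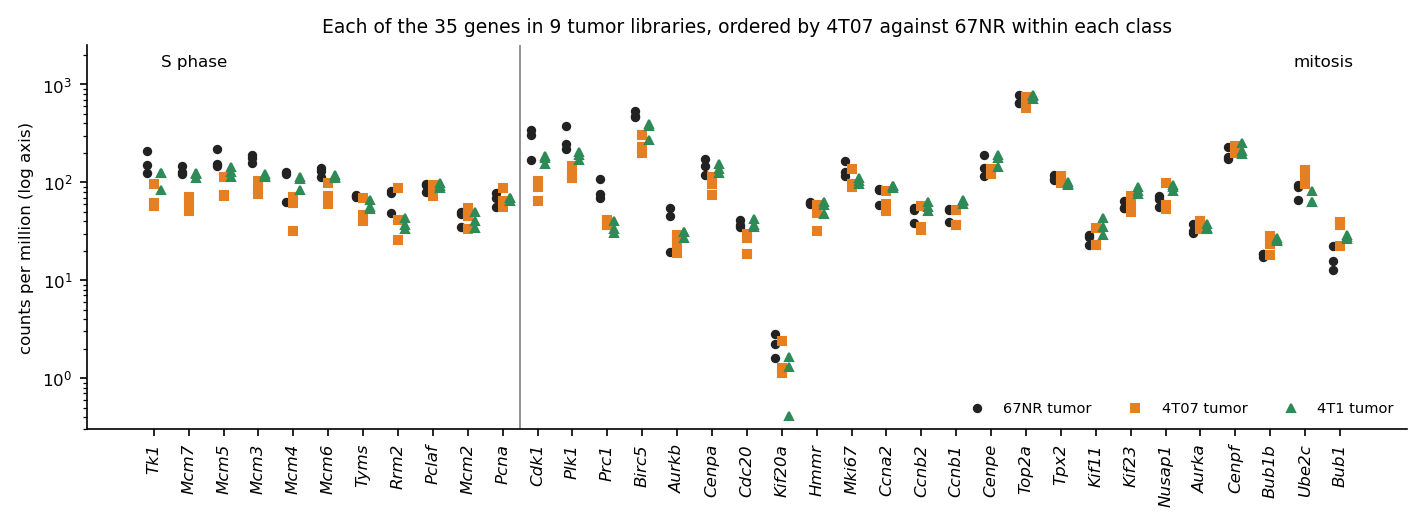
CPM (log axis) of each of the 35 genes in the 9 tumor libraries; black circles, 67NR; orange squares, 4T07; green triangles, 4T1; genes are ordered within S phase (left) and mitosis (right) by the 4T07 against 67NR difference. The 4T07 points of Tk1, Mcm7, Mcm5, Cdk1, Plk1 and Prc1 lie below the 67NR points, and those of Bub1 and Ube2c at the right do not.

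The 4T1 tumors lay between the other lines in fitted level for 9 of the 11 S phase genes. Against 67NR, 2 genes were called lower (9.07% of all genes). Prc1 stood at 40.8, 30.5 and 33.5 CPM (log2 fold change -1.47 ± 0.19, adjusted p = 2.74e-05), as low as in 4T07 tumors, and Rrm2 at 37.1, 43.3 and 33.5 against 48.1, 80.8 and 78.8 (log2 fold change -1.08 ± 0.33, adjusted p = 0.0216). With TMM factors, all 11 S phase genes had negative values, with a median of -0.36, and 16 of 24 mitosis genes did, with a median of -0.16. Under library totals the mitosis median turned to 0.04, so no direction is given for that class. The 8 mitosis genes with positive values were Ccna2, Ccnb1, Ccnb2, Bub1, Bub1b, Kif11, Kif23 and Nusap1, none past the adjusted p. Against 4T07 tumors, Cdk1 was the 1 gene called (3.82% of all genes called higher), at 179, 187 and 153 CPM (log2 fold change 1.06 ± 0.24, adjusted p = 0.0086). Without the first 4T07 tumor, Mcm4 and Mcm7 were called as well. Kif20a, a motor of cytokinesis, had few counts in every tissue, at most 3.18 CPM in any library. It was called in the 4T07 spleens and in both comparisons with the 4T07 lungs, and a difference elsewhere was not detectable at this depth.

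The S phase and mitosis classes were compared within each library. For each gene the log2 level was taken relative to its mean over all libraries of the tissue, averaged over the class, and the mitosis mean was subtracted from the S phase mean. In tumors this difference was 0.19, 0.24 and 0.17 in 67NR, -0.05, -0.23 and -0.22 in 4T07 and -0.06, 0.06 and -0.08 in 4T1 (mean ± SD 0.20 ± 0.04, -0.17 ± 0.10 and -0.03 ± 0.08, n = 3 each). The 3 67NR tumors lay above all 6 others, so S phase genes stood high relative to mitosis genes there. The 4T07 and 4T1 tumors overlapped, since the 4T07 tumor at -0.05 lay above the 4T1 tumors at -0.06 and -0.08. The other 4T07 tumors, at -0.23 and -0.22, lay below all 4T1 tumors. In spleens the means were -0.03 ± 0.17 in control, 0.01 ± 0.03 in 67NR, 0.04 ± 0.05 in 4T07 and -0.01 ± 0.06 in 4T1, and all groups overlapped the control range. In lungs the 4T07 libraries stood at -0.51, -0.60 and -0.51, below all others, whose means were 0.27 ± 0.25, 0.22 ± 0.21 and 0.04 ± 0.17 in control, 67NR and 4T1. What sets the 4T07 lungs apart in this score was not tested. The fits between control organs use another measure, in which spleens exceeded lungs by 3.24 for mitosis and 2.07 for S phase genes. Scaffold means lay between -0.11 ± 0.09 in controls and 0.11 ± 0.25 in 4T1, with overlap. The first 4T07 and the first 4T1 scaffold, both highest in mitosis genes, were the lowest of their groups, at -0.22 and -0.17. These differences are scores over chosen genes and carry no test.

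**Figure D5:**
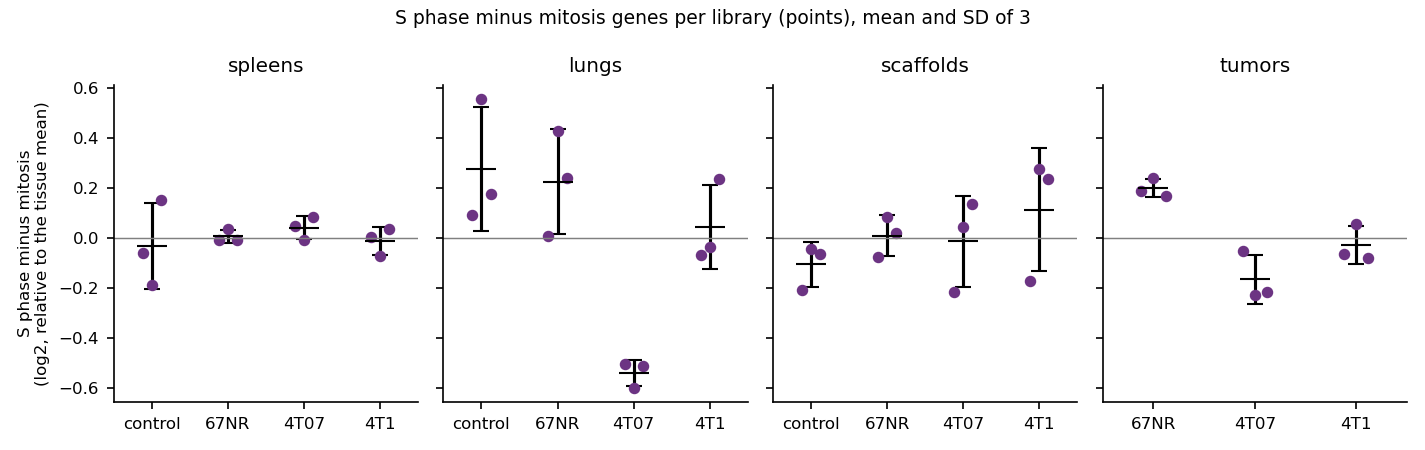
S phase minus mitosis level in each library (points; log2, each gene relative to its mean over the tissue), with the mean and SD of 3 libraries a group. The 67NR tumors lie above the other tumors, the 4T07 lungs lie below the other lungs, and the spleen groups overlap.

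The same contrast was then compared between organs by an interaction test in edgeR (adjusted p under 0.10, no limit on the fold). The 4T1 against 4T07 difference was more positive in tumors than in lungs for 34 of the 35 genes (16.3% of all genes), Kif20a being the exception. Ccnb1 led at 5.00 ± 0.29 (adjusted p = 2.85e-09), with 66.2, 64.2 and 59.8 CPM in 4T1 and 52.6, 36.8 and 36.7 in 4T07 tumors, 5.80, 3.25 and 4.35 in 4T1 and 78.5, 102 and 80.5 in 4T07 lungs. This rests on the 4T07 lungs with spleen transcripts. The 4T1 against control difference was larger in spleens than in lungs for 27 genes (11.7% of all genes). Aurkb led at 2.78 ± 0.40 (adjusted p = 0.000282), with 1.77, 2.68 and 1.80 CPM in 4T1 lungs and 3.14, 1.80 and 3.08 in control lungs beside the rise in spleens given above. The 8 genes without a called difference were Mcm3, Mcm5, Mki67, Top2a, Ccna2, Birc5, Kif11 and Kif20a.

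Other genes of the cycle were read from 3 lists that hold none of the 35: 33 replication genes, 38 mitosis genes and 21 genes of the G1 phase and its control. In spleens, 24 of 33 replication and 34 of 38 mitosis genes were called higher with 4T07 tumors and the same numbers with 4T1 tumors, none lower. Of all genes, 8.26% and 9.84% were called higher in these comparisons. The medians were 1.27 and 1.46 for 4T07 and 1.25 and 1.59 for 4T1. Cdc6, which loads the helicase on origins, differed by 2.31 ± 0.19 (adjusted p = 5.34e-07) and Ccne1, cyclin E1, by 2.57 ± 0.22 (adjusted p = 6.05e-07) in 4T1 spleens. Mybl2, a partner of the MuvB complex, differed by 2.80 ± 0.21 (adjusted p = 1.58e-07) there, and Melk by 2.62 ± 0.31 (adjusted p = 1.69e-05) in 4T07 spleens. With 67NR tumors, 7 and 6 were called higher (1.29% of all genes). The G1 list was mixed, 8 higher and 1 lower with 4T07 and 7 higher and 1 lower with 4T1. Ccnd2, cyclin D2, was the 1 lower gene in both (10.3% and 10% of all genes), at -1.29 and -1.43, and Cdkn1a, the p21 inhibitor, was higher in 4T07 spleens at 1.84 ± 0.20 (adjusted p = 6.27e-06). In 4T07 lungs, 32 replication, 37 mitosis and 7 G1 genes were called higher (15.3% of all genes) and 2 G1 genes lower (13.7%). In 4T1 lungs, 3, 0 and 1 were called higher, where 3.56% of all genes were. With so few called, no result is drawn for the lists as a whole. The called genes included Uhrf1, a maintenance factor of DNA methylation, at 1.68 ± 0.50 (adjusted p = 0.046) and Cdkn2d, the p19 inhibitor, at 1.45 ± 0.17 (adjusted p = 5.83e-06).

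In tumors, 8 replication and 8 mitosis genes were called lower in 4T07 than in 67NR, and 1 replication gene, E2f2, higher (beside 11.8% and 17.1% of all genes). The largest were Gins2, a helicase cofactor, at -1.86 ± 0.45 (adjusted p = 0.0038), and Pttg1, securin, at -1.91 ± 0.17 (adjusted p = 7.38e-07). In 4T1 against 67NR, 4 of 33 and 5 of 38 were called lower, near the 9.07% of all genes, and 1 of each higher, where 11.6% of all genes were. The G1 list held larger differences. Cdkn2a, which encodes the p16 and p19Arf tumor suppressors, stood at 162, 155 and 136 CPM in 67NR, 5.82, 1.81 and 1.98 in 4T07 and 1.46, 3.89 and 2.37 in 4T1 tumors (log2 fold change -5.77 ± 0.34, adjusted p = 1.86e-08 for 4T07, -6.07 for 4T1). Trp53, the p53 gene, and its known targets Cdkn1a and Ccng1 were lower in 4T07 at -1.28, -2.18 and -1.68, and the last 2 also in 4T1 at -2.19 and -1.89. Cdk4, the partner of the D cyclins, stood at 62.9, 95.7 and 96.0 CPM in 67NR, 20.5, 29.0 and 20.6 in 4T07 and 58.9, 61.7 and 47.9 in 4T1 tumors (log2 fold change -2.11 ± 0.22, adjusted p = 3.04e-06) and was called between 4T1 and 4T07 at 1.31 ± 0.22 (adjusted p = 0.000851). Cdk2 fell in 4T07 at -1.28, while Cdkn1c and Ccnd3 were higher there at 1.66 and 1.33, and Myc was higher in 4T1 at 1.40. In scaffolds, 6 replication and 4 mitosis genes were called higher with 4T07 tumors (3.85% of all genes), and none with 67NR or 4T1 tumors. The 4T07 comparison contains the first 4T07 scaffold.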

How the data were processed

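Libraries were made from RNA of the 45 samples with a 3' tag kit that marks molecules (QuantSeq 3' mRNA-Seq with a UMI module). The authors deposited raw counts per gene symbol for each sample, as whole numbers with no normalization. The submitters' processing notes name Trim Galore 0.5.0, STAR 2.6.0 and featureCounts; the genome build, the annotation and whether reads of the same molecule were collapsed are not given in the sources used here. If they were not collapsed, the spread between libraries includes amplification. The 120 lines that repeat a symbol were summed. Library totals were 3491888 to 8175380 counts (median 5149589), so a level of 1 CPM rests on few counts. No 2 libraries of a group held identical counts.

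One model per tissue held all of its groups. Genes needed over 10 counts in sum, and the fit used edgeR 4.0.16 (R 4.3.3; TMM factors, quasi-likelihood F test, Benjamini-Hochberg adjustment over all genes tested). Calls required an adjusted p under 0.05 (tumors, control organs) or 0.10 (other organs) and more than a 2-fold change. Standard errors are the log2 fold change divided by the root of F. Organs of healthy mice (9 libraries) and 2 interaction contrasts (12 libraries each) had fits of their own. Class scores used log2 CPM with TMM factors and a prior count of 2. Alternatives were DESeq2 1.42.0, other scalings and filters, fits of the 2 compared groups alone and each library left out. The fits were tested on simulated counts. The genes, lists and tests were chosen with earlier results of these data known. The text gives full statistics for up to 3 called genes of each class and direction with the largest change, for genes moving against their class, and, from each other list, for up to 2 genes a direction and all called G1 genes in tumors. Promoters are from RefSeq for GRCm38.p6; the 6 printed were chosen after values were seen.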

Additional observations from a re-analysis of the deposited data

Results flagged for a closer look

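In 2 interaction tests the same contrast differed between organs, which is why these results are listed here. For 4T1 against 4T07, 34 of the 35 genes differed between tumors and lungs, led by Ccnb1 at 5.00, Cdk1 at 4.78 and Aurkb at 4.74 on the log2 scale (edgeR, adjusted p = 2.85e-09, 8.36e-09 and 1.34e-08). The 4T07 lungs in this contrast carry spleen stroma transcripts, and their part in it cannot be told apart from that of the tumor line.

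For 4T1 against control, 27 of the 35 genes differed between spleens and lungs, led by Aurkb at 2.78, Cdc20 at 2.54 and Mcm4 at 2.39 (edgeR, adjusted p = 0.000282, 9.43e-05 and 0.00023). No 4T07 library enters this contrast. With only 3 libraries a group, single libraries were not tested as outliers.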

How the results depend on the processing

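The counts of called genes kept their direction throughout. With no limit on the fold, tumor counts went to 17 (4T07 against 67NR), 10 (4T1 against 67NR) and 8 (4T1 against 4T07), lung counts to 2 (67NR) and 8 (4T1 against control), 67NR spleens to 25, 4T1 against 4T07 spleens to 2 and 4T07 scaffolds to 8. With library totals alone they were 5, 1, 0 and 10 for 4T07 and 4T1 against 67NR tumors, 4T1 against 4T07 spleens and 4T07 scaffolds. The count for 4T1 against 4T07 tumors was 0 with at least 10 counts in every library and 2 with only the compared groups, and that for 4T1 against 4T07 scaffolds was 2 with DESeq2 and 6 with no filter, all 6 lower in 4T1. The shares of all genes called under these alternatives are not given here, and the causes were not tested.

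Leaving out each library in turn gave 9 to 14, 1 to 3 and 1 to 3 called genes in the tumor comparisons (4T07 and 4T1 against 67NR, 4T1 against 4T07), 0 to 2, 34 to 35, 3 to 5 and 34 to 35 in lungs (67NR, 4T07 and 4T1 against control, 4T1 against 4T07), 1 to 11, 25 to 30, 26 to 32 and 0 to 1 in spleens and 0 to 0, 0 to 15, 0 to 0 and 0 to 1 in scaffolds in the same order. The 4T07 scaffold count was 0 without the first 4T07 scaffold, 10 without the second, 15 without the third and 3 without the first or second control. With the first 4T07 and first 4T1 scaffold both left out, an alternative chosen after seeing the data, 0 genes were called for 4T07 and 3 for 4T1 against control (Mki67, Cenpf and Hmmr, all lower).

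The S phase minus mitosis difference of the 4T07 lungs was -0.64 with only genes of at least 10 counts in every lung, and moved by less than 1 SD elsewhere. All other alternatives stayed within 1.5 times of the count. Signs were checked for called genes of the 35 given with full statistics, under DESeq2, other scalings and each library left out, and none changed. Genes that were not called, such as Mcm2 and Pcna in tumors, were not in that check. Without TMM factors their mean CPM was 44.1 and 67.6 in 67NR and 44.5 and 69.1 in 4T07 tumors, so their negative values depend on the scaling. No paired analysis was possible because the labels number no animals and tie no organ to a mouse. At totals of 3491888 to 8175380 counts, genes near 1 CPM, such as Kif20a, had too few counts to compare in most organs.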
